A study of Mus musculus with 62 samples.

Results

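Kainate receptors are ionotropic glutamate receptors built from 5 subunits, encoded by Grik1 to Grik5, and they associate with the auxiliary subunits Neto1 and Neto2. These 7 genes were taken by symbol from the 27179 genes of the count tables, and all 7 were present and passed the filter on low counts in every comparison. Grik1 lies in the part of chromosome 16 that is triplicated in Ts65Dn mice, whereas the other members lie outside the triplicated segments. Subunits of the first class (GluK1 to GluK3, from Grik1 to Grik3) can form channels by themselves, while Grik4 and Grik5 encode subunits that bind glutamate with high affinity and need a partner of the first class. Neto proteins change the gating of the channel and its placement at synapses. In the hippocampus, GluK1 is best known from GABAergic interneurons, and kainate receptors with GluK2, GluK4, GluK5 and Neto1 are known from the mossy fiber synapses of CA3.

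On mm10, Grik1 (Entrez 14805) spans chr16:87895901-88290863 on the minus strand. Grik2 (14806) lies at chr10:49093680-49790161, Grik3 (14807) at chr4:125490259-125714173, Grik4 (110637) at chr9:42518182-42945000 and Grik5 (14809) at chr7:25009849-25075694. Neto1 (246317) lies at chr18:86394815-86506721 and Neto2 (74513) at chr8:85636718-85700952. Their annotated exons add up to between 5.17 kb (Grik5) and 13.25 kb (Grik2). The reads carry no strand information, and 219 bases of the exons of Neto1 overlap an antisense gene, so reads of the pair cannot be told apart there.

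RNA-seq libraries were made from E17.5 forebrain of 8 euploid and 7 Ts65Dn embryos, and from the hippocampus of 6-week-old animals. The embryos were of both sexes by the authors' account, with no sex in their labels, and their titles carry numbers of unstated meaning. The adult males comprised 8 euploid, 7 Ts65Dn and 8 Ts65Dn;Brwd1+/- animals, and the adult females 8 of each genotype. Ts65Dn animals carry an extra chromosome with an additional copy of distal chromosome 16 and proximal chromosome 17, so Grik1 is present in 3 copies along with many other genes, some of them without a human chromosome 21 counterpart. In Ts65Dn;Brwd1+/- animals, 1 copy of the chromatin gene Brwd1 is inactivated by the repro5 allele from the sire, and Grik1 stays in 3 copies. All groups share the mixed DBA/2J and B6EiC3Sn/J background, and the study asked which trisomic expression changes depend on the copy number of Brwd1. Whole tissue was used, so a lower level can reflect fewer cells of a type or less RNA per cell, and these cannot be told apart.

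Libraries held 14.86 to 62.62 M counted reads in embryos and 33.58 to 137.1 M in adults (M, mega). Brwd1 was higher in Ts65Dn than in euploid tissue by a log2 fold change of 0.56 ± 0.05 (SE) at E17.5, 0.53 ± 0.09 in males and 0.46 ± 0.11 in females. Between Ts65Dn;Brwd1+/- and Ts65Dn the values were -0.25 ± 0.09 in males and -0.25 ± 0.11 in females and not called (edgeR adjusted p = 0.626 and 0.9999), and against euploid animals Ts65Dn;Brwd1+/- gave 0.28 ± 0.09 and 0.21 ± 0.11, also not called (edgeR adjusted p = 0.231 and 0.453). Some libraries went against their labels. Each library was given the median, over the triplicated genes except Grik1, of the log2 ratio to the euploid mean. It lay between 0.51 and 0.62 in 27 of the 31 adult libraries labelled trisomic and between -0.01 and 0.04 in the other 4. These 4 were B145 of the male Ts65Dn group, B138 and T35 of the male Ts65Dn;Brwd1+/- group and B136 of the female Ts65Dn;Brwd1+/- group. Their Grik1 ratio ran from -0.25 to 0.29. Xist and Ddx3y went against the labelled sex in B88 (male Ts65Dn) and B85 (female euploid). All 6 libraries were kept in the main values. Values without some of them are given beside part of the Grik1 results, beside the male Neto1 levels and beside the named genes of the female comparisons. The Brwd1 values above include these libraries, and no Brwd1 value without them was computed. All 10 hippocampus and forebrain markers were detected in the adult libraries, and of 12 hindbrain and spinal cord markers, 11 had a group mean under 1 CPM (counts scaled to the library total) in every adult group.

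Grik5 was the most abundant member in both tissues when levels were scaled per kilobase of exon. At E17.5, Grik5 stood at 58.6 ± 9.43 CPM per kb (SD, n = 15), followed by Neto2 at 30.7 ± 5.64 and Grik3 at 22.01 ± 2.48. Grik1 followed at 7.34 ± 2.17 and Grik2 at 7.07 ± 0.69, and their order was not fixed, since Grik1 was above Grik2 in 9 of 15 embryos. Neto1 (5.62 ± 0.90) and Grik4 (3.50 ± 0.67) were lowest. In adult hippocampus, Grik5 stood at 73.8 ± 6.69 CPM per kb (SD, n = 47), followed by Neto1 at 14.1 ± 2.43 and Grik4 at 11.4 ± 1.68. Grik3 (8.09 ± 1.72) and Neto2 (7.24 ± 0.74) came next with overlapping levels, Grik3 being above Neto2 in 30 of 47 libraries. Grik2 (4.56 ± 0.47) was above Grik1 (2.50 ± 0.63) in 47 of 47. Thus Grik1 was the least abundant member in the adult table, and Neto1 and Neto2 stood in opposite order in the 2 tables. The tables differ in tissue as well as in age and were normalized separately, so no test was made between them.

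**Figure D1:**
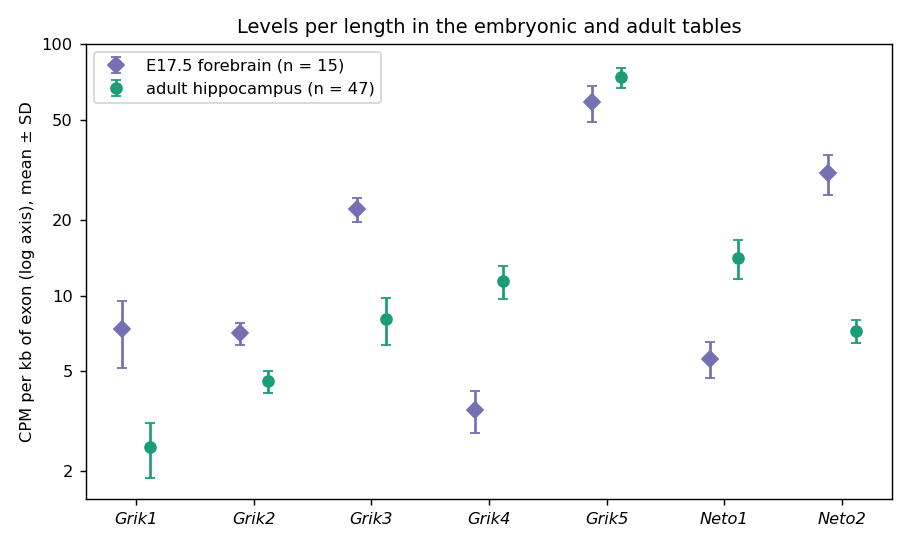
Mean level of each member in CPM per kb of exon (y axis, logarithmic) in E17.5 forebrain (diamonds, n = 15) and adult hippocampus (circles, n = 47), with bars of 1 SD. Grik5 is highest in both, Grik4 and Neto1 are higher in the adult table, and Grik1, Grik2, Grik3 and Neto2 are higher in the embryonic one.

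At E17.5, Grik1 rose in Ts65Dn forebrain. Its level was 4.39, 5.25 and 5.74 log2 CPM in the lowest, the median and the highest of 8 euploid embryos, and 5.62, 5.93 and 6.29 in the 7 Ts65Dn embryos. All 7 Ts65Dn embryos were above the euploid median and 5 of them above the highest euploid embryo, so the groups overlapped. The male marker Ddx3y was present in euploid embryos 3 and 6, the highest of their group for Grik1 (5.74 and 5.53). It was also present in Ts65Dn embryos 1, 2 and 7 (5.62, 6.05 and 6.29). The log2 fold change was 0.65 ± 0.15 (SE; 95% interval 0.34 to 0.96), a fold of 1.56, with an edgeR adjusted p = 0.0535. Of all 16395 genes tested, 1.35% were called at an adjusted p under 0.1, and Grik1 was the only one of the 7 members called. The call was near its threshold. It was lost without euploid embryo 5 (edgeR adjusted p = 0.119), euploid embryo 7 (0.107), or Ts65Dn embryo 2 (0.114), 3 (0.109) or 7 (0.113), while the log2 fold change stayed between 0.55 and 0.73.

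The embryos also varied in markers of other regions. The summed level of 12 hindbrain and spinal cord genes ran from 2.56 to 195 CPM in euploid embryos (median 33.2) and from 45.2 to 326 CPM in Ts65Dn embryos (median 202). The 10 choroid plexus genes summed to 51.1 to 1408 CPM in euploid and 688 to 1580 CPM in Ts65Dn embryos, and the 10 hippocampus and forebrain genes to 1772 to 3972 CPM and 560 to 2653 CPM. No gene of the hindbrain and spinal cord, choroid plexus or hippocampus and forebrain list was called. The log2 fold change was above 0 for 12 of 12, 10 of 10 and 1 of 10 of their genes. None of these genes had a mean under 1 CPM in either group. Glial lists also had medians above that of all genes, of which 1.35% were called. The 6 oligodendrocyte precursor genes had a median log2 fold change of 0.34, with 6 of 6 above 0 and Pdgfra called (0.39, edgeR adjusted p = 0.0546), and the 7 astrocyte genes a median of 0.34, with 5 of 7 above 0 and Gja1 called (0.59, edgeR adjusted p = 0.0330), against -0.01 over all genes. The 8 oligodendrocyte genes summed to 112.7 to 173.2 CPM in euploid and 161 to 191 CPM in Ts65Dn embryos. Olig1 and Olig2 of the precursor list and Clic6 and Kcne2 of the choroid plexus list are themselves triplicated on chromosome 16. For these genes copy number and cell content cannot be told apart. The part of these glial and choroid plexus lists in the Grik1 value was not tested. With the log2 of the hindbrain and spinal cord sum as a covariate, chosen after seeing the data, the Grik1 log2 fold change was 0.56 and not called (edgeR adjusted p = 0.612).

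**Figure D2:**
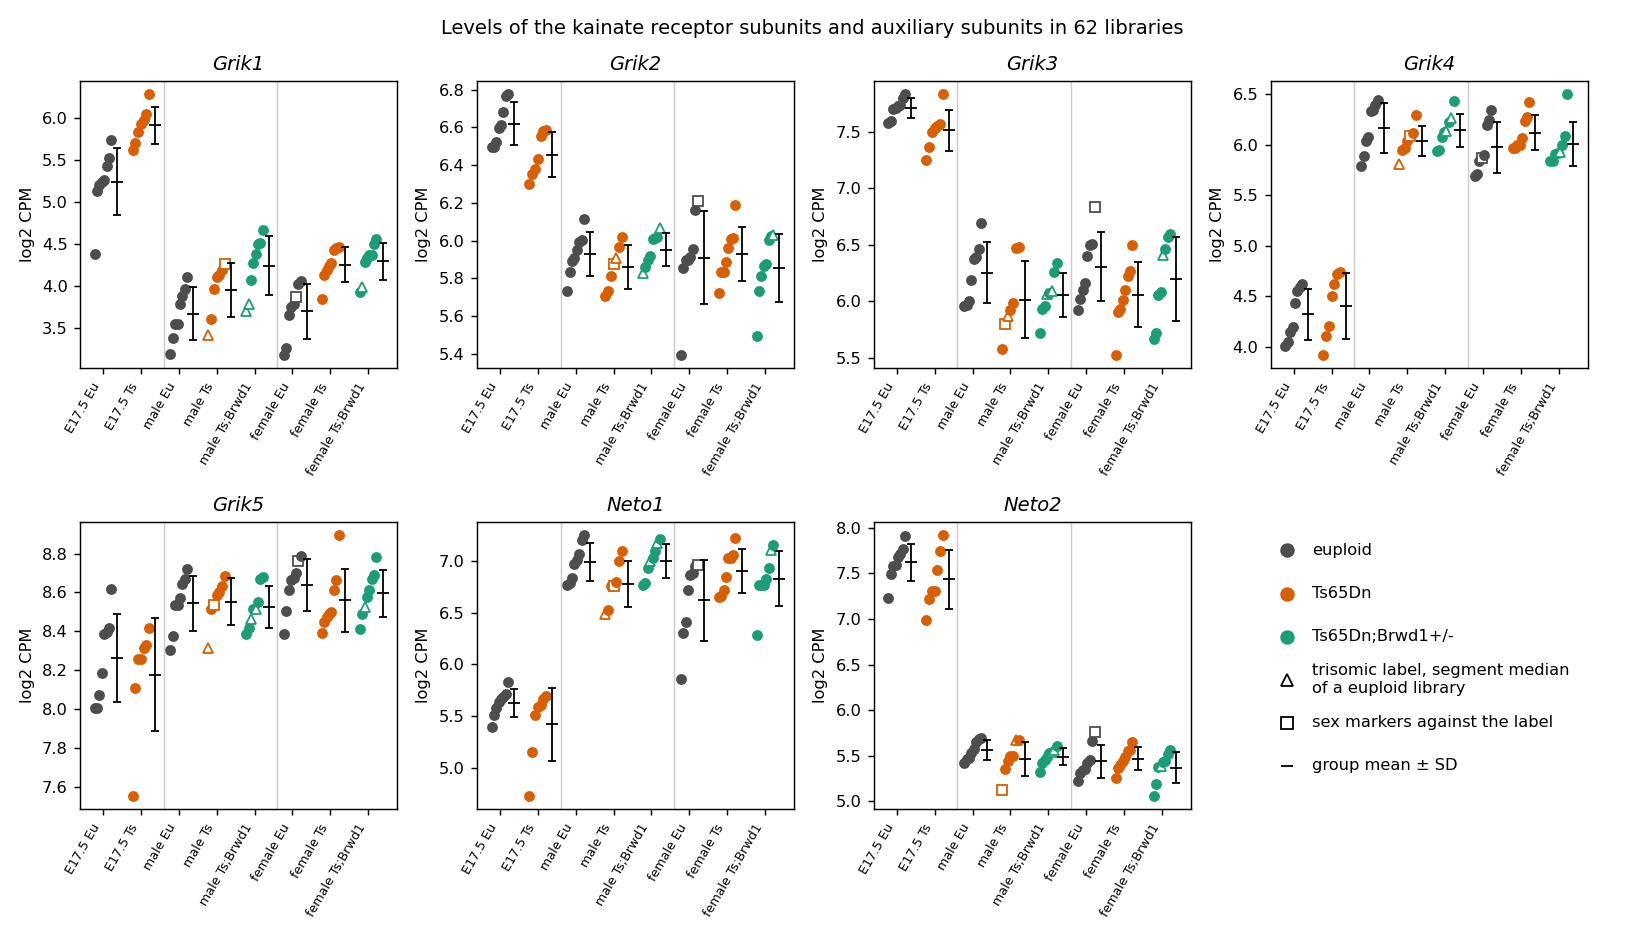
Level of each member in log2 CPM (y axis) in all 62 libraries by group, with 1 point per library and the group mean ± SD beside it. Open triangles are the 4 libraries labelled trisomic without trisomic dosage, open squares the 2 with sex markers against the label. For Grik1, 5 of 7 Ts65Dn embryos and 7 of 8 Ts65Dn females sit above every euploid library of their set, and no member's groups separate fully.

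In male hippocampus, Grik1 was 3.19, 3.67 and 4.11 log2 CPM in the lowest, the median and the highest euploid library, 3.42, 4.12 and 4.27 in Ts65Dn and 3.71, 4.33 and 4.67 in Ts65Dn;Brwd1+/-. The groups overlapped, with 4 of 7 Ts65Dn and 5 of 8 Ts65Dn;Brwd1+/- libraries above the highest euploid one. Ts65Dn vs. euploid gave a log2 fold change of 0.28 ± 0.16 (SE; edgeR adjusted p = 0.643), where 0.795% of all genes tested were called and no member was. Ts65Dn;Brwd1+/- vs. euploid gave 0.57 ± 0.15 (edgeR adjusted p = 0.129), where 0.576% of genes were called and again no member. Ts65Dn;Brwd1+/- vs. Ts65Dn gave 0.29 ± 0.16 (95% interval -0.04 to 0.61, edgeR adjusted p = 0.692). Over the alternative settings, which include fits without libraries against a label, this value ran from 0.29 to 0.40. With single libraries left out it ran from 0.21 to 0.35. In that comparison 0% of genes were called and 1261 had an unadjusted p under 0.05, and DESeq2 called 1 gene.

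The male values depended on the libraries without trisomic dosage. Without B145, B138 and T35, Grik1 was called in Ts65Dn;Brwd1+/- vs. euploid, with a log2 fold change of 0.71 and an edgeR adjusted p = 0.00418. The same comparison also crossed the threshold when single libraries were left out, namely B145 of the Ts65Dn group (edgeR adjusted p = 0.0843), B95 of the euploid group (0.0773), B138 (0.0636) or T35 (0.0501). DESeq2 on all 23 libraries called Grik1 there too (0.57, DESeq2 adjusted p = 0.0209). Ts65Dn vs. euploid stayed uncalled without the 3 libraries (0.36, edgeR adjusted p = 0.332) and without B88 (0.23, edgeR adjusted p = 0.597).

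In female hippocampus, Grik1 rose in both trisomic genotypes. Its level was 3.18, 3.77 and 4.07 log2 CPM in the lowest, the median and the highest euploid library, 3.85, 4.26 and 4.47 in Ts65Dn and 3.94, 4.36 and 4.56 in Ts65Dn;Brwd1+/-. Both trisomic groups overlapped the euploid one by few libraries, since 7 of 8 Ts65Dn and 6 of 8 Ts65Dn;Brwd1+/- libraries were above the highest euploid library. Ts65Dn vs. euploid gave a log2 fold change of 0.53 ± 0.12 (SE), a fold of 1.44 (edgeR adjusted p = 0.0243), where 3.17% of all genes were called and Grik1 alone of the members. Ts65Dn;Brwd1+/- vs. euploid gave 0.58 ± 0.12, a fold of 1.49 (edgeR adjusted p = 0.0186), where 0.729% of genes were called and Grik1 alone of the members. These comparisons share their 8 euploid libraries.

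The female calls held without any single library, with edgeR adjusted p-values of at most 0.0534 and 0.0542. Without B136 the Ts65Dn;Brwd1+/- vs. euploid log2 fold change was 0.62 (edgeR adjusted p = 0.00878), and without B85 the Ts65Dn vs. euploid one was 0.56 (edgeR adjusted p = 0.0296). Grik1 did not separate Ts65Dn;Brwd1+/- from Ts65Dn females. The log2 fold change was 0.05 ± 0.12 with a 95% interval of -0.20 to 0.30, and 0% of genes were called there, with 604 genes at an unadjusted p under 0.05 and 14 called by DESeq2.

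Whether the Grik1 change differed between the sexes was tested over all 47 adult libraries. The Ts65Dn vs. euploid change was larger in females by a log2 of 0.25 ± 0.20 (edgeR adjusted p = 0.696), and the change from Ts65Dn to Ts65Dn;Brwd1+/- was smaller in females, with a difference of -0.25 ± 0.20 (edgeR adjusted p = 0.9999). In both interaction tests 0% of genes were called; 1935 and 650 genes had an unadjusted p under 0.05, and DESeq2 called 94 genes and 1 gene. Between euploid females and males, the Grik1 difference was 0.04 ± 0.14 (3.71% of genes called, no member among them), and without B85 it was 0.01. Leaving out B85 lowered the number of genes called there from 619 to 76. Without B85 and B88 the first interaction was 0.34 (edgeR adjusted p = 0.568). Between Ts65Dn females and males Grik1 differed by 0.28 ± 0.12 (edgeR adjusted p = 0.978; 0.00598% of genes called, no member among them), with an unadjusted p of 0.0342 in edgeR. Over the alternative settings, which include fits without libraries against a label, this difference ran from 0.21 to 0.34.

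**Figure D3:**
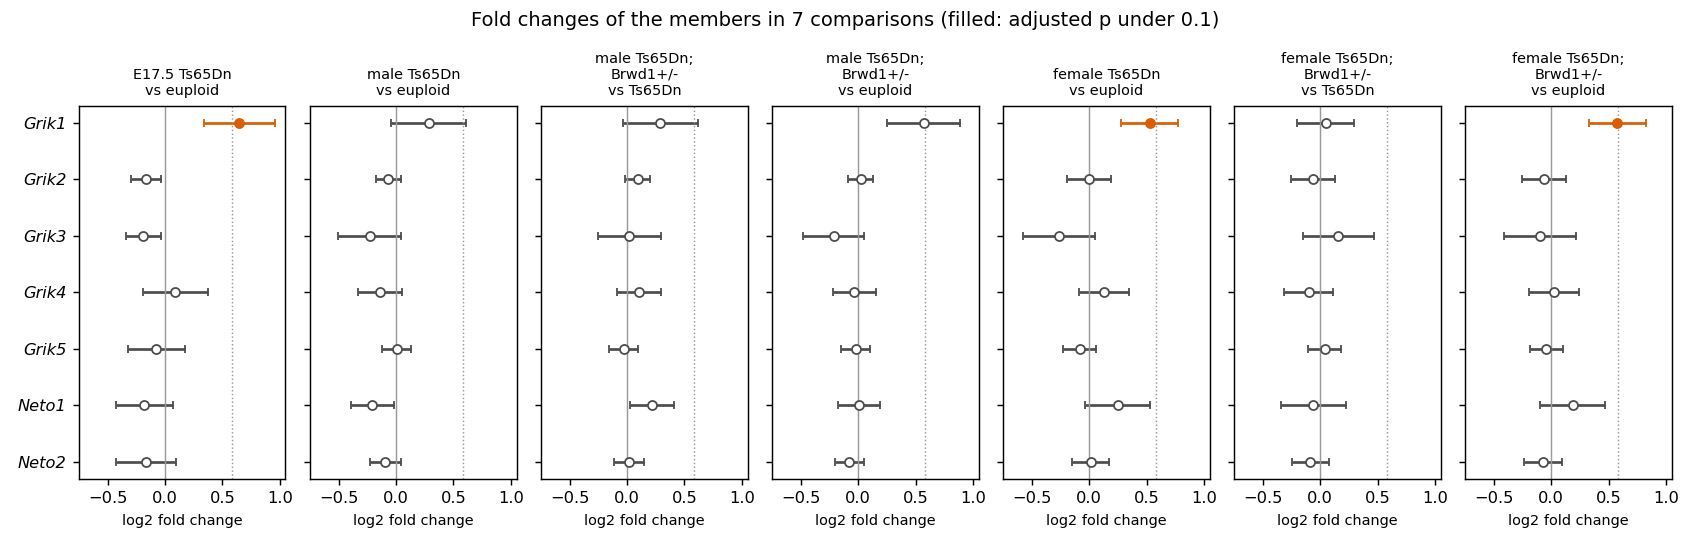
Log2 fold change of each member (x axis, points) with its 95% interval (bars) in the 7 comparisons of genotypes. Filled points have an edgeR adjusted p under 0.1, the solid line marks no change and the dotted line a fold of 1.5. Grik1 is the only filled member, in the E17.5 comparison and in both female comparisons with euploid animals.

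With 3 gene copies in place of 2, a proportional change gives a log2 ratio of 0.585. Grik1 was set against the other triplicated genes library by library. At E17.5 the median log2 fold change of 132 other triplicated genes was 0.56 (quartiles 0.47 and 0.69), and 42 of them were above the 0.65 of Grik1. In males 115 of 132 genes were above Grik1 in Ts65Dn vs. euploid and 20 of 132 in Ts65Dn;Brwd1+/- vs. euploid. In females 64 and 36 of the tested triplicated genes were above it. Grik1 was thus above the segment median in embryos and in Ts65Dn;Brwd1+/- animals of both sexes, close to it in female Ts65Dn animals (0.53 for both) and below it in male Ts65Dn animals (0.28 against 0.50).

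The difference between the log2 ratio of Grik1 and the median of the other triplicated genes was then tested by exact 2-sided permutation of the libraries, adjusted over 7 comparisons. It averaged 0.09 ± 0.22 (SD) in Ts65Dn embryos and -0.01 ± 0.42 in euploid embryos (exact permutation p = 0.622). In males it was -0.21 ± 0.22 in Ts65Dn, 0.13 ± 0.19 in Ts65Dn;Brwd1+/- and -0.01 ± 0.31 in euploid libraries. Ts65Dn;Brwd1+/- and Ts65Dn males differed by 0.34 (exact permutation p = 0.00528, adjusted p = 0.0370). Without the 3 libraries lacking trisomic dosage the difference was 0.36 with 6 libraries a group, and no longer passed (exact permutation p = 0.0216, adjusted p = 0.152). In females the same difference was 0.11 (exact permutation p = 0.302), and the other comparisons had exact permutation p-values from 0.171 to 0.974.

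**Figure D4:**
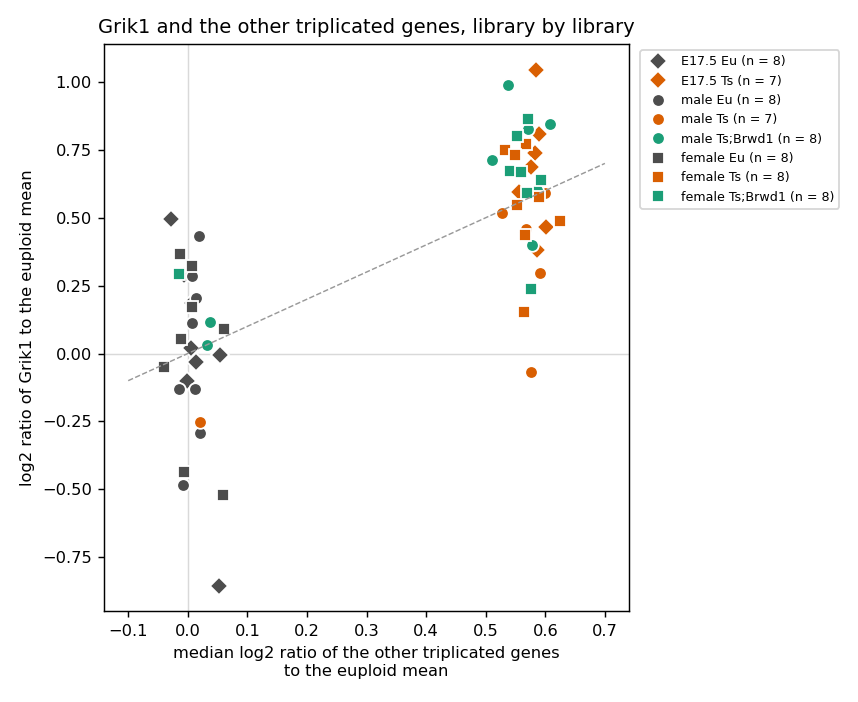
Log2 ratio of Grik1 to the euploid mean (y axis) against the median log2 ratio of the other triplicated genes (x axis), 1 point per library, with the line of equality dashed. On the y axis, libraries with trisomic dosage run from -0.07 to 1.04. The 4 adult libraries labelled trisomic without trisomic dosage sit among the euploid ones.

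The log2 ratio of Grik1 to the euploid mean ran from 0.38 to 1.04 among the 7 Ts65Dn embryos. Among the 27 adult libraries with trisomic dosage it ran from -0.07 in the male Ts65Dn library B45 to 0.99 in the male Ts65Dn;Brwd1+/- library B51.

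Grik1 lies in a stretch with few tested genes. The nearest tested protein-coding gene before it is Bach1, a repressor of heme oxygenase, with its midpoint at 377 kb, and the nearest after it is Tiam1, an activator of Rac, at 1873 kb. At E17.5 Bach1 rose by a log2 of 0.52 ± 0.07 and Tiam1 by 0.54 ± 0.07, and Cct8, Usp16 and Rwdd2b on the one side and Sod1, Scaf4 and Hunk on the other were called as well, with values from 0.32 to 0.58. In male Ts65Dn vs. euploid, 8 of the 10 neighbours were called, all but Map3k7cl and Sod1, whereas Grik1, with an SE of 0.16, was not. Of all 132 other triplicated genes tested, 55.3% were called there. The same share was 62.12% at E17.5 and 63.91% in female Ts65Dn vs. euploid. In female Ts65Dn vs. euploid, 7 of the 10 were called, all but Map3k7cl, Tiam1 and Scaf4.

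**Figure D5:**
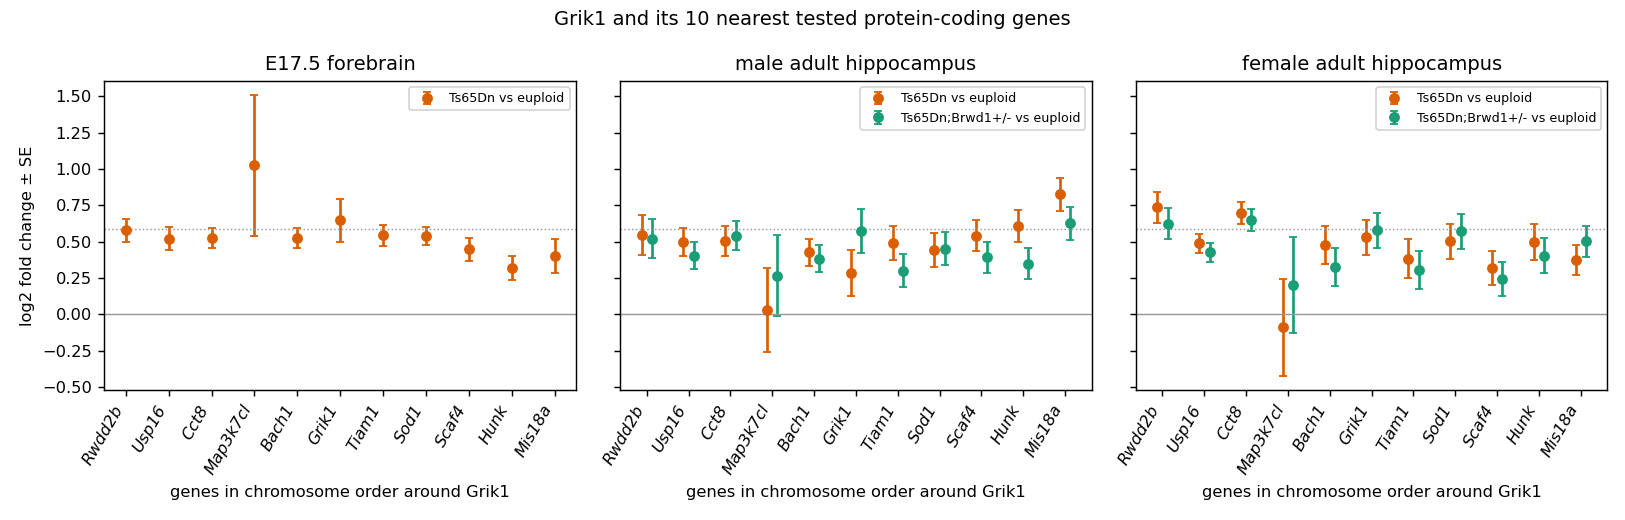
Log2 fold change ± SE (y axis) of Grik1 and the 5 nearest tested protein-coding genes on each side, in chromosome order (x axis), against euploid animals. The dotted line marks a fold of 1.5. In males Grik1 (0.28) lies below its neighbours other than Map3k7cl in Ts65Dn and at 0.57 in Ts65Dn;Brwd1+/- animals.

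The share of Grik1 in the transcripts of the 5 subunits, from counts scaled by exon length, was compared next. At E17.5 the share was 3.73%, 5.87% and 6.80% in the lowest, the median and the highest euploid embryo and 7.59%, 9.57% and 11.03% in Ts65Dn embryos. The groups did not overlap, and the mean rose from 5.74% to 9.44% (exact permutation p = 0.000155, the smallest that 7 against 8 libraries can give, adjusted p = 0.00326 over 21 tests). This test took no account of the region markers that varied between the embryos. Ts65Dn embryo 6, at 10.78%, had the lowest Grik5 level of its group (7.56 log2 CPM). Its Grik1 level (5.71 log2 CPM) was below that of the highest euploid embryo (5.74). In females the share of Grik1 rose from 1.93% ± 0.48 (SD) in euploid to 2.89% ± 0.48 in Ts65Dn and 2.92% ± 0.52 in Ts65Dn;Brwd1+/- libraries (both exact permutation p = 0.00233, adjusted p = 0.0163). In males it was 1.97% ± 0.497 in euploid, 2.40% ± 0.397 in Ts65Dn (exact permutation p = 0.0920, adjusted p = 0.276) and 2.93% ± 0.65 in Ts65Dn;Brwd1+/- libraries (against euploid, exact permutation p = 0.00575, adjusted p = 0.0302). Without the libraries lacking trisomic dosage, the male Ts65Dn;Brwd1+/- share was 3.22% ± 0.45 against 2.48% ± 0.37 in Ts65Dn (exact permutation p = 0.0130, adjusted p = 0.0545), where all libraries gave an adjusted p of 0.276.

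The share of the subunits that form channels by themselves was not moved by genotype beyond the spread of the libraries. Grik1, Grik2 and Grik3 together made up 37.3% ± 3.80 (SD, n = 15) of the 5 subunits at E17.5 and 15.2% ± 2.17 (n = 47) in adults, and exact permutation p-values between genotypes ran from 0.287 to 0.987. The size of this share depended on the scaling by exon length. Without it, group means were 51.4% in euploid and 51.6% in Ts65Dn embryos and from 24.1% to 25.5% in adults. Neto1 made up 15.6% ± 2.02 of the Neto transcripts at E17.5 and 65.7% ± 4.27 in adults, with exact permutation p-values between genotypes from 0.0720 to 0.893 and adjusted p-values of at least 0.276.

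Grik2 and Grik3, the other subunits of the first class, were not called in any comparison of the main fits. With 3 RUVr factors, which are meant to absorb unwanted variation, both were called at E17.5 (edgeR adjusted p = 0.0366 and 0.0540). That edgeR fit called 3621 of all 16395 genes. DESeq2 with 3 RUVr factors also called Grik3 in male Ts65Dn vs. euploid (DESeq2 adjusted p = 0.0340), male Ts65Dn;Brwd1+/- vs. euploid (0.0797) and female Ts65Dn vs. euploid (0.0913). Of all genes it called 1198 and 1322 of 16851 in the male comparisons and 4383 of 17146 in the female one. At E17.5, Grik2 was 6.50, 6.61 and 6.78 log2 CPM in the lowest, the median and the highest euploid embryo and 6.30, 6.43 and 6.59 in Ts65Dn embryos. All 7 Ts65Dn embryos were below the euploid median. The log2 fold change was -0.16 ± 0.06 (edgeR unadjusted p = 0.0176, adjusted p = 0.304). Grik3 was 7.57, 7.72 and 7.83 log2 CPM in euploid and 7.25, 7.53 and 7.83 in Ts65Dn embryos, and 6 of 7 Ts65Dn embryos were below the lowest euploid one. The exception was Ts65Dn embryo 4. The log2 fold change of Grik3 was -0.19 ± 0.07 (edgeR unadjusted p = 0.0176, adjusted p = 0.304). Of all genes tested at E17.5, 12.08% had an unadjusted p under 0.05. The embryos also varied in region markers, and the part of the hippocampus and forebrain list in the Grik2 and Grik3 values was not tested.

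In adults, the log2 fold changes of Grik3 were -0.23 ± 0.13 in male and -0.26 ± 0.15 in female Ts65Dn vs. euploid, and -0.21 ± 0.13 and -0.10 ± 0.15 in Ts65Dn;Brwd1+/- vs. euploid, with edgeR adjusted p-values from 0.431 to 0.851. The highest Grik3 level of the adult libraries, 6.83 log2 CPM, was that of B85, a female-labelled euploid library with male sex markers. The log2 fold changes of Grik2 ran from -0.07 to 0.09 in the 6 adult comparisons of genotypes, and their 95% intervals reached from -0.26 at the lowest to 0.20 at the highest.

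Grik4 and Grik5, the high-affinity subunits, were not called either, although edgeR with 3 RUVr factors called Grik5 in female Ts65Dn vs. euploid (-0.08, edgeR adjusted p = 0.0645) and between euploid sexes (0.10, edgeR adjusted p = 0.0423). These fits called 4025 of 17146 and 4024 of 16693 genes. Grik5, the partner in most neuronal kainate receptors, was 8.30, 8.55 and 8.72 log2 CPM in the lowest, the median and the highest male euploid library and 8.32, 8.59 and 8.68 in male Ts65Dn libraries. Its log2 fold change there was 0.01 ± 0.06, with a 95% interval of -0.12 to 0.13. Over the 7 comparisons its values ran from -0.08 to 0.04. Grik4 ran from -0.14 ± 0.09 in male to 0.13 ± 0.11 in female Ts65Dn vs. euploid, and the difference between the sexes was 0.27 ± 0.15 (edgeR unadjusted p = 0.0689, adjusted p = 0.498).

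Neto1, which promotes the slow kainate receptor currents of CA3 synapses, had values of opposite sign in the sexes. In males it was 6.77, 6.995 and 7.26 log2 CPM in the lowest, the median and the highest euploid library, 6.49, 6.76 and 7.10 in Ts65Dn and 6.77, 7.02 and 7.22 in Ts65Dn;Brwd1+/-. Below the euploid median were 5 of 7 Ts65Dn males, and all 8 Ts65Dn;Brwd1+/- males were above the Ts65Dn median. The log2 fold changes were -0.21 ± 0.09 for Ts65Dn vs. euploid (edgeR unadjusted p = 0.0341, adjusted p = 0.513) and 0.22 ± 0.09 for Ts65Dn;Brwd1+/- vs. Ts65Dn (edgeR unadjusted p = 0.0265, adjusted p = 0.626). Of all genes, 8.91% and 7.48% had an unadjusted p under 0.05 there. The lowest Ts65Dn level was that of B145, a library without trisomic dosage. With B145, B138 and T35 left out, mean Neto1 was 6.83 log2 CPM for Ts65Dn males (n = 6). It was 6.98 for Ts65Dn;Brwd1+/- (n = 6) against 6.99 for euploid males (n = 8). Over the alternative settings, the 2 log2 fold changes ran from -0.22 to -0.15 and from 0.13 to 0.23. In females Neto1 was 5.86, 6.80 and 6.96 in euploid and 6.65, 6.94 and 7.23 in Ts65Dn libraries. The female log2 fold change was 0.25 ± 0.14 (edgeR adjusted p = 0.402).

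Without B85 the female value was 0.30 (edgeR adjusted p = 0.367). The test of this difference between the sexes gave 0.46 ± 0.17 for Neto1 (edgeR unadjusted p = 0.0109, adjusted p = 0.327), which did not pass the threshold. Of all genes 11.1% had an unadjusted p under 0.05 there. Fits with RUVr factors called Neto1 (0.47 with 1 factor, edgeR adjusted p = 0.0975, beside 468 of 17427 genes). Between euploid females and males Neto1 gave -0.33 ± 0.14 on the log2 scale, which was not called (edgeR adjusted p = 0.233), and -0.37 without B85, the female-labelled library with male sex markers (edgeR adjusted p = 0.223). With 1 RUVr factor it was called (edgeR adjusted p = 0.0532), beside 2676 of 16693 genes. Neto2, the other auxiliary subunit, was 7.23, 7.63 and 7.91 log2 CPM in the lowest, the median and the highest euploid embryo and 6.99, 7.31 and 7.92 in Ts65Dn embryos, a difference of -0.17 ± 0.13 (edgeR adjusted p = 0.577). Fits with RUVr factors called it, with 1 factor at -0.18 (edgeR adjusted p = 0.0493), beside 1501 of 16395 genes. In the 6 adult comparisons of genotypes Neto2 ran from -0.09 to 0.02.

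The 22 partners comprised scaffolds, trafficking factors, modifying enzymes and the synaptic organizers of mossy fiber receptors. None of the 22 was called at E17.5 or in the 3 male comparisons of genotypes. In female Ts65Dn vs. euploid 1 of 22 was called beside 3.17% of all genes, a share near that background, and the median log2 fold change of the list was 0.05 against -0.02 over all genes. This gene was C1ql2, a mossy fiber organizer that recruits kainate receptors, at 0.60 ± 0.18 (edgeR adjusted p = 0.0957), and without B85 it was at 0.57 and not called (edgeR adjusted p = 0.170). Between euploid females and males, 3 of 22 partners were called beside 3.71% of all genes. Klhl17, an actin-binding partner of GluK2, was higher in females (0.53 ± 0.12, edgeR adjusted p = 0.0570), and Cul3, a ubiquitin ligase (-0.22 ± 0.05, edgeR adjusted p = 0.0581), and Snap25, a SNARE protein (-0.22 ± 0.06, edgeR adjusted p = 0.0698), were lower. None of the 3 was called without B85, with 0.47 for Klhl17 and -0.22 for Cul3 (both edgeR adjusted p = 0.111) and -0.22 for Snap25 (edgeR adjusted p = 0.123).

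Of 13 genes for AMPA, NMDA and delta receptors, Grin2c, an NMDA receptor subunit, was lower in female Ts65Dn (-0.44 ± 0.12, edgeR adjusted p = 0.0618) and Ts65Dn;Brwd1+/- libraries (-0.47 ± 0.12, edgeR adjusted p = 0.0895) than in euploid ones, and no other gene of the list was called in the comparisons of genotypes. Of all genes 3.17% and 0.729% were called there. Without B85 neither Grin2c value was called (-0.39, edgeR adjusted p = 0.135, and -0.43, edgeR adjusted p = 0.200). Of the genes of glutamate release and uptake, Slc1a2, the main astrocytic glutamate transporter, was lower in male Ts65Dn;Brwd1+/- vs. euploid (-0.22 ± 0.05, edgeR adjusted p = 0.0581), where 0.576% of all genes were called. It was called as well without B145, B138 and T35 (-0.23, edgeR adjusted p = 0.0321).

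Marker levels of the cells known for GluK1 were examined beside Grik1. The 18 GABAergic interneuron genes summed to 1933 to 2759 CPM in female euploid, 1962 to 2544 CPM in female Ts65Dn and 1954 to 2332 CPM in female Ts65Dn;Brwd1+/- libraries. In males the sums were 2002 to 2330 CPM, 1986 to 2385 CPM and 2119 to 2466 CPM in the same order of genotypes. Of the list, Cnr1, the cannabinoid receptor of a class of interneurons, was called in female Ts65Dn vs. euploid (0.42 ± 0.09, edgeR adjusted p = 0.0155, and 0.40 without B85, edgeR adjusted p = 0.0314), beside 3.17% of all genes, and no other gene was in the comparisons of genotypes. In that comparison 8 of the 18 genes were above 0, and the list median of -0.02 equalled that over all genes. Between euploid females and males Cnr1 was lower (-0.26 ± 0.08, edgeR adjusted p = 0.09996), beside 3.71% of all genes. Without B85 it was not called there (-0.23, edgeR adjusted p = 0.176). No interneuron gene had a mean under 1 CPM in any adult group. Choroid plexus genes ranged from 36.3 to 6444 CPM in sum over the adult libraries and overlapped between all groups. Their part in the Grik1 values was not tested.

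Across the 47 adult libraries, after the group means were taken out, the members did not vary together as a set. The highest Spearman correlation between members was that of Grik4 and Neto1 (rho = 0.73), followed by Grik2 and Neto1 (0.57), and the lowest was that of Grik3 and Grik4 (-0.41). Grik1 was weakly related to the other members (rho from -0.19 to 0.30). The genes most like Grik1 were Pafah1b3 (rho = 0.77), Gm16702 (0.74) and Sstr1 (0.73). Without the 4 libraries lacking trisomic dosage Sstr1, a somatostatin receptor, came first at 0.78, followed by Tpbg (0.76) and Nxph2 (0.76). The gene most like Grik4 was Lsm11 (0.85), that most like Grik5 was Plppr2 (0.88) and that most like Neto1 was Kcnq5 (0.88). For Grik2 and Grik3 these were Pcdh19 (0.77) and Trim66 (0.83). These values describe libraries that share depth, dissection and cell makeup, and no test was made of them.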

How the data were processed

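The authors deposited counts: reads mapped to mm10 with HISAT2 and assigned to 27179 Entrez genes by featureCounts, with no scaling. Gene names and positions were taken from RefSeq (25275 genes matched) and exon lengths from GENCODE (24343 genes). The triplicated segments were set to begin at Mrpl39 (chromosome 16) and to end at Pde10a (chromosome 17), from general knowledge. For tests, edgeR 4.0.16 in R 4.3.3 was used: TMM scaling, filterByExpr (minimum count 10), robust quasi-likelihood test, Benjamini-Hochberg adjustment over every tested gene, threshold 0.1. Within a sex, 1 model held the 3 genotypes. Levels are log2 CPM with a prior count of 0.5. Alternatives used DESeq2 1.42.0, RUVr factors, other scalings, no filter and subsets of libraries. The authors' methods name DESeq2 with RUVr, but the number of factors is not given in the sources used here, so a fit without factors gave the main values. Shares and dosage were tested by exact 2-sided permutation.

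The members and gene lists were chosen with earlier results of these data known. Of a list, every called gene was named where 5 or fewer were called. For likeness, the rule took the 3 genes with the highest Spearman correlation per member. Values of the named list genes without libraries that went against a label were added after seeing the data. Some results under these rules are not reported here. Scripts were tested on simulated data. A library is 1 sample by its label. The authors' methods say that molecular samples were not pooled and that each animal counted separately. The labels do not state this library by library, and p-values measure the spread between these libraries.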

Additional observations from a re-analysis of the deposited data

Results flagged for a closer look

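Among 56 sets of 1 member in 1 group of 7 or 8 libraries, 5 held a library whose gap to the nearest other library was a large part of the range of the group (Dixon's 95% critical value). Chance alone gives about 1 such set in 20. Grik1 in euploid embryo 4 was 4.39 log2 CPM, and the next embryo was at 5.14. Grik5 in Ts65Dn embryo 6 was 7.56 log2 CPM, and the next was at 8.11. In females, Grik2 in the euploid library B125 was 5.39 log2 CPM with the next at 5.86. Grik4 in the Ts65Dn;Brwd1+/- library B181 was 6.50 log2 CPM with the next at 6.09, and Neto1 in the Ts65Dn;Brwd1+/- library B176 was 6.29 log2 CPM with the next at 6.77.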

How the results depend on the processing

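At E17.5 the Grik1 call did not hold at a threshold of 0.05 (log2 fold change 0.65), with a replicate block (0.67, edgeR adjusted p = 0.146) or with the hindbrain and spinal cord covariate, which was chosen after seeing the data (0.56), and in each of these 0 members were called. The replicate numbers do not pair the embryos: the correlations of 7 same-numbered pairs ran from -0.13 to 0.23, and 1 of 7 was highest at its own number. Fits with 1 RUVr factor, 3 RUVr factors and DESeq2 with 3 RUVr factors called 2, 4 and 4 members at E17.5 and 2, 3 and 4 in female Ts65Dn vs. euploid. Of all genes they called 1501, 3621 and 4067 of 16395 at E17.5 and 2408, 4025 and 4383 of 17146 in that female comparison. They called 1, 1 and 1 members for the first interaction (468, 2293 and 2583 of 17427 genes). Between euploid sexes they called 1, 3 and 3 members (2676, 4024 and 4599 of 16693 genes). With all adult groups in 1 fit, 1 member and 1698 of 17427 genes were called between euploid sexes. Between Ts65Dn sexes the RUVr fits called 0, 1 and 1 members (4, 132 and 640 of 16719 genes), where Grik1 was at 0.30 with 3 factors in either tool. DESeq2 with 3 RUVr factors called 1 member in male Ts65Dn vs. euploid (1198 of 16851 genes). In male Ts65Dn;Brwd1+/- vs. Ts65Dn it called 2 members, Grik1 (0.29) among them (991 of 16851 genes).

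In male Ts65Dn;Brwd1+/- vs. euploid, Grik1 crossed the threshold with DESeq2 (0.57), 1 (0.58) or 3 RUVr factors (0.56), DESeq2 with 3 RUVr factors (0.56, 2 members and 1322 of 16851 genes called), all adult groups in 1 fit (0.57), only libraries whose identifier starts with B (0.64), and without libraries lacking trisomic dosage (0.71) or against either label (0.71). Without the libraries lacking trisomic dosage, the male dosage difference between the trisomic genotypes was 0.36 (no longer passing) and the difference in Grik1 share 0.738 percentage points (passing). Sign changes of uncalled differences were 0.00022 for dosage in female Ts65Dn vs. euploid with chromosome 16 genes only, and for shares -0.125 points (first-class share, female Ts65Dn vs. euploid, no length scaling), 0.167 (same share, male Ts65Dn;Brwd1+/- vs. euploid) and -0.26 (Neto1 share, female Ts65Dn;Brwd1+/- vs. Ts65Dn), the last 2 without libraries lacking trisomic dosage.

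Single genes also changed sign, none of them called. These were Grik4 at E17.5 with the covariate (-0.037), Grik5 in male Ts65Dn vs. euploid (-0.00048, upper quartile), and in male Ts65Dn;Brwd1+/- vs. Ts65Dn Grik3 (-0.015, -0.019 and -0.063 without libraries lacking dosage, against the sex label or against either) and Neto2 (-0.034 and -0.024 for the last 2). Neto1 in male Ts65Dn;Brwd1+/- vs. euploid was -0.017 and -0.016 without libraries lacking dosage or against either label. With B identifiers only, Neto2 was -0.025 in female Ts65Dn vs. euploid, Grik5 -0.017 in female Ts65Dn;Brwd1+/- vs. Ts65Dn and Grik3 0.011 in the first interaction, where it was 0.034 without libraries against the sex label. Between euploid sexes Grik2 was -0.0022 (DESeq2), -0.00062 (upper quartile), -0.0065 and -0.0065 (1 and 3 RUVr factors), -0.014 (DESeq2 with 3), -0.041 (without libraries against either label) and -0.0050 (1 fit), and Grik3 -0.022 without the latter. Between Ts65Dn sexes, without libraries against either label, Grik3 was -0.042 and Grik5 -0.034 (-0.022 without those lacking dosage), and Neto2 was 0.0063 (upper quartile), 0.0062, 0.0085 and 0.0087 (RUVr fits) and 0.034 (without those lacking dosage).

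Leaving out 1 library at a time, Grik1 ran from 0.55 to 0.73 at E17.5 (0 to 1 members called), 0.51 to 0.64 in male Ts65Dn;Brwd1+/- vs. euploid (0 to 1) and -0.0052 to 0.087 in female Ts65Dn;Brwd1+/- vs. Ts65Dn, below 0 only without B56 of the Ts65Dn group. Uncalled genes crossed 0 in Grik5 at E17.5 (-0.11 to 0.0069), Grik5 in male Ts65Dn vs. euploid (-0.027 to 0.042), Grik3 (-0.048 to 0.10) and Neto2 (-0.034 to 0.051) in male Ts65Dn;Brwd1+/- vs. Ts65Dn, and Grik2 (-0.0057 to 0.048), Grik4 (-0.078 to 0.0088), Grik5 (-0.052 to 0.0026) and Neto1 (-0.021 to 0.050) in male Ts65Dn;Brwd1+/- vs. euploid. In females these were Grik2 (-0.057 to 0.053) and Neto2 (-0.014 to 0.070) in Ts65Dn vs. euploid and Grik4 (-0.064 to 0.080) in Ts65Dn;Brwd1+/- vs. euploid. The causes of these changes were not tested. Counts of all genes called ranged over the settings from 65 to 4067 at E17.5 and from 323 to 4383 in female Ts65Dn vs. euploid, the highest with RUVr factors.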
